A study of Rattus norvegicus with 12 samples.

Results

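The glucocorticoid receptor gene Nr3c1 and 7 genes known to respond to it (Fkbp5, Tsc22d3, Per1, Zbtb16, Cxcr4, Glul and Irs2) were followed in rat whole blood. The 8 genes were chosen by symbol and known role, with earlier results of these data known, and all 8 had a row among the 17337 genes of the deposited counts. Of these, 7 passed the low count filter that left 2781 genes for testing, and Zbtb16 did not. The 12 libraries came from male rats in 4 groups of 3: WKY (Wistar Kyoto) after chronic restraint stress (CRS), WKY without stress (NS), F344 (Fischer) after CRS, and F344 NS. All rats, 70 to 90 days old, went through contextual fear conditioning and then 4 weeks in the home cage. CRS rats were held in restraint bags for 2 hours a day over 2 weeks, and NS rats stayed in the home cage. Every rat was fear conditioned again and decapitated 24 hours after that test, so the NS groups were also exposed to conditioning. No genotype was altered. The labels number the libraries within a group without stating that each is a different rat; the p-values therefore rest on spread among libraries, part of which may be technical.

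The glucocorticoid receptor sits in the cytoplasm in a chaperone complex with Hsp90. Corticosterone, the main glucocorticoid of the rat, binds it and sends it to the nucleus, where it raises some genes and represses others, many of them inflammatory. In blood, glucocorticoids are known for moving leukocytes between vessels and tissues as well as for changing transcription in each cell, and bulk blood RNA cannot tell fewer cells of a type from less RNA per cell.

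Depth was limited. Genes received 1691956 to 3846263 counts per library, but 3 very abundant features took 88.9% to 94.6% of them and left 90796 to 419789 counts for all other genes. The 8 genes together had 437 to 639 counts per library in CRS WKY, 363 to 499 in NS WKY, 630 to 892 in CRS F344 and 147 to 434 in NS F344. One count was worth 0.201 to 1.135 CPM (the usual depth-scaled count, with TMM scaling as a correction for library composition). NS F344 replicates 2 and 3 were the coarsest, and the F344 stress values of the 7 tested genes are also given without them, which leaves a lone NS F344 library whose spread is taken from the other groups. Blood cell markers were present: for example, the red cell gene Hbb had 1119003 counts in all, the monocyte gene Lyz2 3207 and the T cell gene Cd3e 89. The 7 brain and muscle markers summed to 5.76 to 13.3 CPM per library.

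Promoter sequence is shown for Cxcr4 and Glul, the pair whose CRS and NS libraries did not overlap in F344 (values follow further on). RefSeq promoter windows of build GRCr8, from 250 bases before to 50 after a gene start, matched 6 of the 8 genes by symbol, with 10 windows in all. Zbtb16 and Irs2 had none in that table. The window of Cxcr4 lies on the minus strand at chr13:42634239-42634538 and a window of Glul on the plus strand at chr13:68575816-68576115, both read 5′ to 3′. Capitals mark TGACG, a cyclic AMP response element half-site, or CCAAT, the CCAAT box, on either strand.
Cxcr4: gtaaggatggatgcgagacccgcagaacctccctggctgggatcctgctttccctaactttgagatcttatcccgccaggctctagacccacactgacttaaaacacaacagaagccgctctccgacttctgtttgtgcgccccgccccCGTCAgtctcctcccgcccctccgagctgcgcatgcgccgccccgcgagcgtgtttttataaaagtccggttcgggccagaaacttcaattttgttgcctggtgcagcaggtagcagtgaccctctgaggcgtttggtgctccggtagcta
Glul: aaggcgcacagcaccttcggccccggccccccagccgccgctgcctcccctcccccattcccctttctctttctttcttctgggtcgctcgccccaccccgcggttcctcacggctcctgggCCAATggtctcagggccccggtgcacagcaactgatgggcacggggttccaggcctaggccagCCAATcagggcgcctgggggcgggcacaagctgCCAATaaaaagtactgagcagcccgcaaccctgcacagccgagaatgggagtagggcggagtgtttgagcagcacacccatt
The Glul window held 3 CCAAT matches and the Cxcr4 window 1 TGACG match. Over the 10 windows, 3 held TGACG and 4 held CCAAT, against 21.2% and 37.5% of all 33469 windows of the table. The glucocorticoid response element half-site AGAACA was in 0 of the 10 windows, against 20.7% of all windows. The palindromic core GNACANNNTGTNC was also in 0 of the 10, against 0.439% of all windows. These counts describe letters in 300 bases around a start, and receptor binding was not measured.

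The receptor gene came first. Nr3c1 stood at 5.83, 3.02 and 5.55 CPM in CRS WKY replicates 1 to 3, against 7.32, 6.84 and 4.996 CPM in NS WKY. In F344 it stood at 3.41, 4.07 and 5.04 CPM after CRS, against 5.75, 4.85 and 6.81 CPM in NS. Both CRS groups had the lower mean, but the groups overlapped within each strain, and the group means ran in the order NS WKY, NS F344, CRS WKY, CRS F344 with no gap between neighbours beyond their spread. The log2 fold change for CRS against NS was -0.39 in WKY (95% interval -1.13 to 0.35) and -0.44 in F344 (-1.25 to 0.37). Averaged over strains it was -0.41 with a standard error (SE) of 0.270, a ratio of 0.751 with a 95% interval of 0.514 to 1.10 (edgeR quasi-likelihood test, Benjamini-Hochberg adjusted p = 0.872). It was negative in all 3 comparisons and in each alternative tried, but its size moved, to -0.17 in WKY without CRS WKY replicate 2 and to -0.095 in F344 and -0.24 on average with no count filter, under which the median of all 2781 genes was 0.36 in F344 and 0.18 on average. Without NS F344 replicates 2 and 3 the F344 value was -0.39. WKY against F344 gave log2 0.24 after CRS and 0.18 without stress, with an averaged ratio of 1.16 (0.793 to 1.69). Nr3c1 had 202 counts over the 12 libraries, and its SD within groups, 0.820 to 1.55 CPM, was close to the counting error alone, which gives 1.01 to 2.02 CPM.

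**Figure D1:**
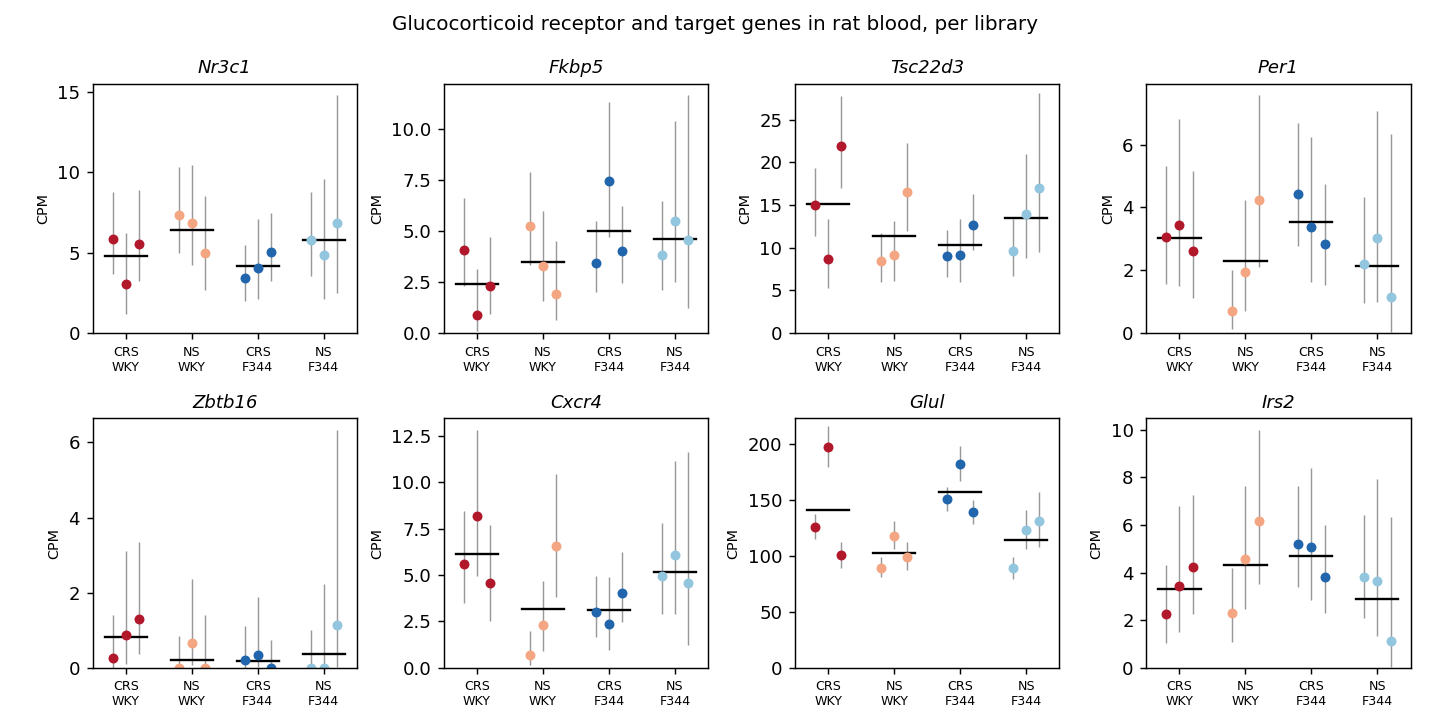
Level of each of the 8 genes in CPM (TMM-scaled, linear axis from 0) in the 3 libraries of each group, in replicate order from left to right; grey bars are exact 95% Poisson intervals of the count, which cover counting error only, and black lines are group means. Cxcr4 spans 0.686 to 8.20 CPM, Zbtb16 stays under 1.31 CPM, and Glul is the gene whose counting bars are small beside the differences between libraries.

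Fkbp5 and Tsc22d3 are the classic readouts of receptor activity: Fkbp5 encodes a co-chaperone that lowers the receptor's hormone affinity, and Tsc22d3 encodes GILZ, an anti-inflammatory leucine zipper protein. Fkbp5 stood at 4.06, 0.863 and 2.28 CPM in CRS WKY, against 5.26, 3.26 and 1.92 CPM in NS WKY. The F344 libraries held 3.41, 7.46 and 4.03 CPM after CRS, against 3.84, 5.46 and 4.54 CPM in NS. The lowest value, in CRS WKY replicate 2, rested on 2 counts, and the groups overlapped in both strains. The log2 fold change for CRS was -0.49 in WKY (-1.48 to 0.50) and 0.09 in F344 (-0.87 to 1.05). Without CRS WKY replicate 2 the WKY value was -0.16, without NS WKY replicate 1 it was -0.01, and without CRS WKY replicate 1 it was -1.12. The F344 value was 0.38 without NS F344 replicates 2 and 3.

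Tsc22d3 stood at 15.0, 8.63 and 21.9 CPM in CRS WKY, against 8.46, 9.12 and 16.5 CPM in NS WKY. In F344 it stood at 9.03, 9.16 and 12.7 CPM after CRS, against 9.59, 13.95 and 17.0 CPM in NS. Its log2 fold changes for CRS had opposite signs, 0.45 in WKY (-0.25 to 1.15) and -0.31 in F344 (-1.05 to 0.44), with overlap in both strains. The difference between these responses was log2 0.76 (SE 0.505, edgeR adjusted p = 0.993). Without NS F344 replicates 2 and 3 the F344 value turned to 0.18 and the difference shrank to 0.30. Without CRS WKY replicate 3, the highest library, the WKY value was 0.12, and without NS WKY replicate 3 it was 0.80, with a difference between strains of 1.08 (edgeR adjusted p = 0.983 and 0.997). Its SD in CRS WKY, 6.62 CPM, was 3.00 times the counting error.

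Per1 is a core clock gene with known glucocorticoid response elements, and Zbtb16 encodes the transcription factor PLZF, induced by glucocorticoids in several cell types. Per1 stood at 3.04, 3.45 and 2.61 CPM in CRS WKY, against 0.686, 1.95 and 4.23 CPM in NS WKY. The F344 libraries held 4.41, 3.39 and 2.82 CPM after CRS, against 2.19, 3.03 and 1.135 CPM in NS. NS WKY replicate 3 exceeded all CRS WKY libraries, and NS F344 replicate 2 exceeded CRS F344 replicate 3, so the groups overlapped in each strain. The log2 fold change was 0.51 in WKY (-0.60 to 1.62) and 0.65 in F344 (-0.50 to 1.80). The average of 0.58 (SE 0.394) is a ratio of 1.49 with an interval of 0.860 to 2.60 (edgeR adjusted p = 0.872). The WKY value was 1.26 without NS WKY replicate 3 and 0.00 without NS WKY replicate 1, and the F344 value was 0.76 without NS F344 replicates 2 and 3. Per1 had 108 counts in all, 1 of them in NS F344 replicate 3. The hour of blood collection is not given in the sources used here.

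Zbtb16 had 12 counts over the 12 libraries. There were 1, 2 and 4 in CRS WKY replicates 1 to 3, against 0, 2 and 0 in NS WKY. In F344 there were 1, 1 and 0 after CRS, against 0, 0 and 1 in NS. It was at 0 counts in 5 libraries, where 0 allows up to 3 counts, or 0.605 to 1.82 CPM. CRS minus NS, averaged over strains, was 0.196 CPM (two-sided exact permutation test within strata, 400 arrangements, p = 0.53), and WKY minus F344 was 0.233 CPM (exact p = 0.44), where the smallest p possible is 0.005. No change of Zbtb16 was detected.

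Cxcr4, the receptor for the chemokine CXCL12 that holds leukocytes and their precursors in bone marrow, had the largest difference in response between the strains among the 7 tested genes. It stood at 5.58, 8.20 and 4.57 CPM in CRS WKY, against 0.686, 2.28 and 6.53 CPM in NS WKY. In F344 it stood at 3.01, 2.37 and 4.03 CPM after CRS, against 4.93, 6.07 and 4.54 CPM in NS. All CRS F344 libraries were below all NS F344 libraries, and in WKY the groups overlapped through NS WKY replicate 3. The log2 fold change for CRS was 1.05 in WKY (SE 0.482, 0.08 to 2.03), with an unadjusted p of 0.0354 and an adjusted p of 0.790 (edgeR). In F344 it was -0.69 (SE 0.497, -1.70 to 0.32; edgeR adjusted p = 0.975). The difference between the responses was log2 1.75 (SE 0.694, interval 0.34 to 3.15), with an unadjusted p of 0.0163, rank 34 of 2781 genes, and an adjusted p of 0.993 (edgeR). It did not pass. WKY against F344 gave log2 0.90 after CRS, where every WKY library was above every F344 library, and -0.85 without stress, where they overlapped.

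The Cxcr4 values rested on the NS WKY libraries, which held 3, 7 and 17 counts, and their SD of 3.02 CPM was 2.84 times the counting error. Without NS WKY replicate 3 the WKY log2 fold change was 2.098 and the difference between strains 2.77 (edgeR adjusted p = 0.390 and 0.334). Without NS WKY replicate 1 they were 0.49 and 1.16. Without NS F344 replicates 2 and 3 the F344 value was -0.54 and the difference 1.63. Markers of cells that carry Cxcr4 were set beside it. The 11 T cell markers summed to 26.7 to 39.3 CPM in CRS WKY, against 32.6 to 37.3 CPM in NS WKY. They summed to 39.7 to 50.7 CPM in CRS F344, against 42.5 to 57.8 CPM in NS F344. The 6 B cell markers summed to 25.1 to 41.4 CPM in CRS WKY, against 40.0 to 66.7 CPM in NS WKY. They summed to 46.5 to 56.0 CPM in CRS F344, against 21.6 to 54.8 CPM in NS F344. By their medians, CRS before NS, the B cell sums were 40.6 against 49.4 CPM in WKY and 54.4 against 24.3 CPM in F344. The coarsest libraries, NS F344 replicates 2 and 3, held 24.3 and 21.6 CPM, and NS F344 replicate 1 held 54.8 CPM. Over the 12 libraries Cxcr4 and the B cell sum gave Pearson's r = -0.43 (permutation p = 0.165) and Spearman's rho = -0.62 (permutation p = 0.0362). With the T cell sum Cxcr4 gave r = -0.04 (permutation p = 0.908) and rho = -0.12 (permutation p = 0.717). Adjusted over 56 such relations each permutation p was 0.560 or more. On deviations from the 4 group means r was -0.07 with the B cell sum and -0.30 with the T cell sum. The part of these cells in the Cxcr4 values was not tested further.

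Glul and Irs2 stand for metabolic targets. Glul encodes glutamine synthetase, which makes glutamine from glutamate, and Irs2 encodes an adaptor of the insulin receptor. Glul was the best measured of the 8, with 4884 counts. It stood at 126, 197 and 100 CPM in CRS WKY, against 89.4, 118 and 99.1 CPM in NS WKY. The F344 libraries held 150, 182 and 139 CPM after CRS, against 88.8, 123 and 131 CPM in NS. All CRS F344 libraries lay above all NS F344 libraries, while in WKY only CRS WKY replicates 1 and 2 lay above all NS WKY libraries. The log2 fold change was 0.46 in WKY (-0.13 to 1.06) and 0.47 in F344 (-0.13 to 1.07), and the difference between them was -0.01 (-0.85 to 0.84). The average of 0.47 (SE 0.209) is a ratio of 1.38 with an interval of 1.03 to 1.85; its unadjusted p was 0.0318 and its adjusted p 0.663 (edgeR), so it did not pass. Without CRS WKY replicate 2 the WKY value was 0.16 and the average 0.33. Without NS F344 replicates 2 and 3 the F344 value was 0.89 and the average 0.69.

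Red cell markers were set beside Glul. The 8 erythroid markers summed to 35575 to 38366 CPM in CRS WKY, against 20745 to 26706 CPM in NS WKY, where the groups did not overlap. They summed to 25966 to 42480 CPM in CRS F344, against 20959 to 36045 CPM in NS F344. Hbb made up most of these sums, with 1119003 counts in all, and Hbb-b1 was next with 40625. Of the 7 tested erythroid markers, 6 had positive log2 fold changes for CRS in WKY and 4 in F344 (medians 0.22 and 0.11). None passed or had an unadjusted p under 0.05 in either strain (edgeR), against 5.79% of all genes under 0.05 in WKY and 4.71% in F344. Over the 12 libraries Glul and the erythroid sum gave Pearson's r = 0.64 (permutation p = 0.0262) and Spearman's rho = 0.58 (permutation p = 0.0514), and r fell to 0.44 without the 2 libraries farthest from the median sum. Adjusted over 56 such relations the permutation p was 0.489 for r and 0.560 for rho, and the part of red cells in the Glul values was not tested further. The smallest p of Glul was with the NK cell sum (r = -0.66, permutation p = 0.0215, adjusted 0.489). Its rho was -0.62 (permutation p = 0.0382, adjusted 0.560). The 6 NK cell markers were close to the floor, with sums of 3.21 to 10.1 CPM per library and 1 of the 6 tested. In NS F344 replicate 3 their sum of 3.40 CPM was worth 3 counts. On deviations from the 4 group means Glul gave r = -0.82 with the T cell sum, -0.69 with the NK cell sum and -0.68 with the monocyte sum. With the erythroid sum that r was 0.47. The 8 platelet markers summed to 82.1 to 129 CPM in CRS WKY, against 43.8 to 95.8 CPM in NS WKY, and to 71.4 to 81.7 CPM in CRS F344, against 34.0 to 55.3 CPM in NS F344, where the groups did not overlap. For single genes, CRS and NS libraries did not overlap for 10% of all tested genes in WKY and 11.9% in F344. All 6 tested platelet markers had positive log2 fold changes for CRS in both strains (medians 0.44 in WKY and 0.80 in F344). Of all genes, 51.2% were positive in WKY and 51% in F344. In edgeR 0 of the 6 passed in either strain, against 0% of all genes. At an unadjusted p under 0.05 there was 1 of 6 in WKY, against 5.79% of all genes. In F344 there were 3 of 6, against 4.71%. Glul and the platelet sum gave r = 0.23 (permutation p = 0.471) and rho = 0.11 (permutation p = 0.732), with adjusted permutation p of 0.917 and 0.992 and r = 0.37 without the 2 libraries farthest from the median sum. Cxcr4 and the platelet sum gave r = -0.28 (permutation p = 0.389, adjusted 0.917) and rho = -0.26 (permutation p = 0.418, adjusted 0.992). On deviations from the 4 group means r with the platelet sum was -0.66 for Cxcr4 and -0.06 for Glul. The part of platelets in the F344 values of Glul and Cxcr4 was not tested further. In the GRCr8 annotation 4 other genes overlap the span of Glul (Rgsl1, Rgsl2h, Teddm1b and Teddm1a), 1 overlaps Zbtb16 and 1 overlaps Fkbp5. That build differs from the rn6 build of the counts, and reads shared between genes may have been left uncounted.

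Irs2 stood at 2.28, 3.45 and 4.24 CPM in CRS WKY, against 2.29, 4.56 and 6.15 CPM in NS WKY. In F344 it stood at 5.21, 5.09 and 3.83 CPM after CRS, against 3.84, 3.64 and 1.135 CPM in NS. In F344 the groups overlapped by a single pair of close values. The log2 fold changes had opposite signs, -0.34 in WKY (-1.25 to 0.56) and 0.51 in F344 (-0.43 to 1.46). The difference of -0.86 (SE 0.646, -2.17 to 0.45) did not pass (edgeR adjusted p = 0.993). The lowest library, NS F344 replicate 3, rested on 1 count, and without it the F344 value was 0.34; it was 0.81 without NS F344 replicate 1 and 0.36 without replicates 2 and 3. The WKY value was -0.69 without NS WKY replicate 1 and -0.02 without NS WKY replicate 3.

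Read as a set, the 7 tested genes gave no call for restraint. In WKY 0 of 7 passed an adjusted p of 0.05 (edgeR), as did 0% of all genes tested, and DESeq2 also called 0. At an unadjusted p under 0.05 there was 1 of 7, Cxcr4, against 5.79% of all genes. The CRS and NS libraries of WKY did not overlap for 0 of 7, against 10% of all genes. In F344 0 of 7 passed, against 0% of all genes, and DESeq2 called 0. There were 0 of 7 at an unadjusted p under 0.05, against 4.71% of all genes (DESeq2 gave 1), and groups did not overlap for 2 of 7, Cxcr4 and Glul, against 11.9%. Averaged over strains 0 of 7 passed in edgeR and in DESeq2, against 0.036% of all genes (1 gene), and 1 of 7, Glul, had an unadjusted p under 0.05, against 7.01%. For the difference between strains in the response, 0 of 7 passed in both tools, against 0% of all genes, and 1 of 7, Cxcr4, had an unadjusted p under 0.05, against 3.81%. The median log2 fold change of the 7 was 0.45 in WKY and 0.09 in F344, beside 0.02 and 0.01 over all genes tested, with single values from -0.49 to 1.05 in WKY and -0.69 to 0.65 in F344.

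**Figure D2:**
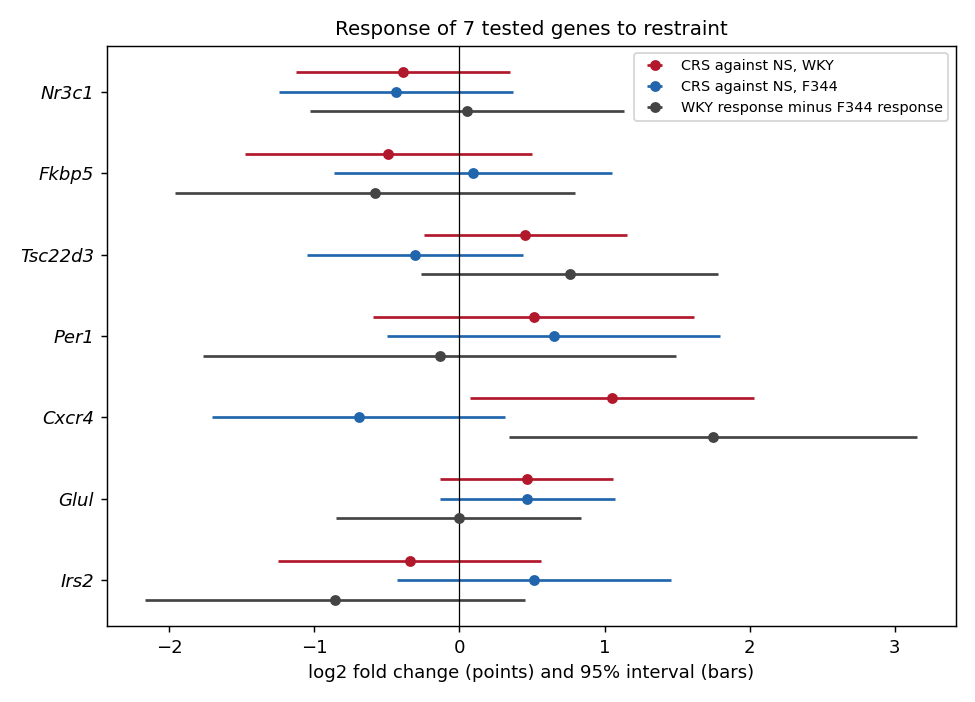
Log2 fold change (points) with its 95% interval (bars) for CRS against NS in WKY, CRS against NS in F344, and the WKY response minus the F344 response, for the 7 tested genes. The intervals of Cxcr4 in WKY (0.08 to 2.03) and of its difference between strains (0.34 to 3.15) lie above 0 before adjustment, and the other intervals span 0.

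The strain itself was compared in the same fit. After CRS 0 of 7 passed in WKY against F344 (edgeR, and 0 in DESeq2), against 1.4% of all genes, 0 of 7 had an unadjusted p under 0.05, against 11%, and 1 of 7, Cxcr4, had groups that did not overlap, against 19.6%. Without stress 0 of 7 passed in both tools, against 0.683%, 0 of 7 had an unadjusted p under 0.05, against 9.35%, and 0 of 7 had groups that did not overlap, against 14%. Averaged over treatments 0 of 7 passed in both tools, against 3.74%, and 0 of 7 had an unadjusted p under 0.05, against 14.8% of all genes. Fkbp5 had the smallest p of the averaged comparison. It averaged 2.40 ± 1.60 CPM in CRS WKY and 4.97 ± 2.18 CPM in CRS F344, and 3.48 ± 1.68 CPM in NS WKY and 4.61 ± 0.815 CPM in NS F344 (SD, n = 3 each). Its averaged log2 difference was -0.59 (SE 0.341), a ratio of 0.665 with an interval of 0.412 to 1.07 (edgeR adjusted p = 0.443). The T cell sums given with Cxcr4 were lower in WKY libraries than in F344 libraries. Fkbp5 and the T cell sum gave r = 0.59 (permutation p = 0.0443, 0.620 adjusted over 56 relations) and rho = 0.52 (permutation p = 0.0899, adjusted 0.560). That r was 0.35 without the 2 libraries farthest from the median sum and 0.27 on deviations from group means. With the monocyte sum Fkbp5 gave r = -0.50 (permutation p = 0.0961, adjusted 0.897), and 0.30 on deviations from group means. The part of these cells in the Fkbp5 value was not tested further. The averaged log2 differences of Tsc22d3 (0.18), Per1 (-0.17), Cxcr4 (0.02), Glul (-0.15) and Irs2 (-0.09) all had intervals that included 0, the widest from -0.97 to 0.64 for Per1.

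Relations between Nr3c1 and the 6 other tested genes were then computed over the 12 libraries on log2 CPM with a prior count of 0.5. Per1 was low where Nr3c1 was high: Pearson's r was -0.75 (permutation p = 0.00361, 0.0217 adjusted over the 6 relations) and Spearman's rho -0.85 (permutation p = 0.000900, adjusted 0.00540). Without the 2 libraries farthest from the Nr3c1 median, CRS WKY replicate 2 and CRS F344 replicate 1, r was -0.80. Leaving out single libraries gave r from -0.80 to -0.72, and on deviations from the 4 group means r was -0.64. Glul also ran against Nr3c1, with r = -0.72 (permutation p = 0.00849, adjusted 0.0255) and rho = -0.68 (permutation p = 0.0184, adjusted 0.0553). For Glul r was -0.51 without the same pair of libraries and -0.50 on deviations from group means. Fkbp5 gave r = 0.43 (permutation p = 0.161) and rho = 0.24 (permutation p = 0.444), which turned to r = -0.11 without that pair. Tsc22d3 (r = 0.31, rho = 0.21), Cxcr4 (r = -0.38, rho = -0.30) and Irs2 (r = -0.53, rho = -0.45) did not pass either, with permutation p from 0.0730 to 0.514. Within a single group of 3 libraries no correlation can be given. The permutations shuffled all 12 libraries without regard to group. The share of all tested genes that relate this strongly to Nr3c1 was not computed. The values share library, scaling and depth. Both genes had few counts, 1 to 22 per library for Per1 and 6 to 32 for Nr3c1. The SD of Per1 was 0.412 to 0.865 times the counting error in CRS WKY, CRS F344 and NS F344, and 2.00 times in NS WKY. For Nr3c1 it was 0.485 to 1.25 times. The part of counting error in these relations was not tested. Per1 gave r = 0.06 and Nr3c1 r = -0.29 with log2 depth outside the 3 abundant features (permutation p = 0.832 and 0.360, both 0.917 or more adjusted; rho 0.01 and -0.16, permutation p = 0.991 and 0.620). Without the 2 libraries farthest from the median depth these r were -0.34 and 0.00.

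**Figure D3:**
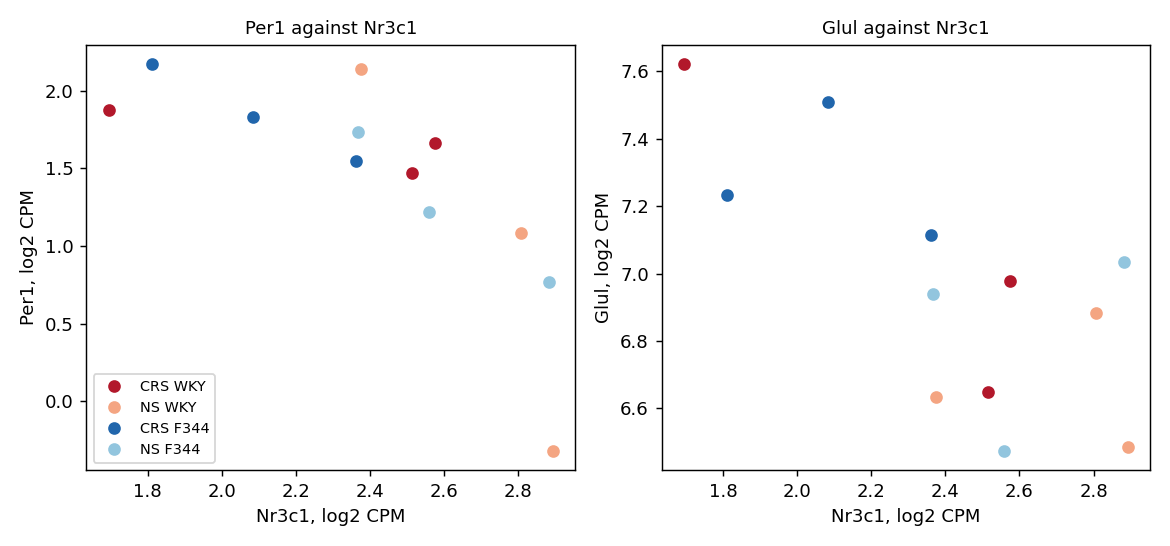
Log2 CPM of Per1 (left) and Glul (right) against log2 CPM of Nr3c1, 1 point per library, coloured by group. Points run from upper left to lower right in both panels (r = -0.75 for Per1 and -0.72 for Glul over 12 libraries), and the lowest Per1 point is NS WKY replicate 1, with 3 counts.

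The same 7 genes were set against marker sums of 7 blood cell types and against depth. None of these 56 relations passed after adjustment (permutation test, Benjamini-Hochberg). The smallest unadjusted p belonged to Tsc22d3 and the B cell sum, with r = -0.76 (permutation p = 0.00461, adjusted 0.258), rho = -0.70 (permutation p = 0.0146, adjusted 0.560), r = -0.77 without the 2 libraries farthest from the median sum and -0.73 on deviations from group means. Among genes averaging at least 20 CPM, those most like each of the 7 by Pearson's r over the 12 libraries were looked up as a description. Glul had the closest partners, Slc25a39, a mitochondrial carrier linked to glutathione import (r = 0.93, rho = 0.90), and the ubiquitin gene Ubb (r = 0.92, rho = 0.88). Nr3c1 was nearest to LOC100362110 (r = 0.68, rho = 0.48) and to Ptprc, which encodes the leukocyte surface phosphatase CD45 (r = 0.61, rho = 0.53). Tsc22d3 was also nearest to Ptprc (r = 0.68, rho = 0.83), and then to LOC310926, one of the 3 abundant features (r = 0.67, rho = 0.66). Cxcr4 was nearest to Tfdp2, a partner of E2F factors (r = 0.75, rho = 0.74), and Fzr1 (r = 0.66, rho = 0.31). Fkbp5 was nearest to Tax1bp1 (r = 0.67, rho = 0.56) and Hbb-b1 (r = 0.64, rho = 0.66). Per1 was nearest to Hagh (r = 0.68, rho = 0.58) and Oaz1 (r = 0.67, rho = 0.57), and Irs2 to Akap13 (r = 0.60, rho = 0.55).

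Further genes of the pathway were read from 4 lists. Of 41 listed glucocorticoid-responsive genes beside the 8, 17 were tested. None passed in edgeR for CRS in WKY or F344, against 0% of all genes in each, and 0 had an unadjusted p under 0.05, against 5.79% of all genes in WKY and 4.71% in F344. The median log2 fold change was -0.06 in WKY and -0.03 in F344, beside 0.02 and 0.01 over all genes. Dusp1, a phosphatase that switches off MAP kinases, averaged 13.4 ± 6.34 CPM in CRS WKY and 9.69 ± 2.96 CPM in NS WKY, and 8.55 ± 1.38 CPM in CRS F344 and 15.0 ± 6.75 CPM in NS F344 (SD, n = 3 each). Its log2 fold changes, 0.49 in WKY and -0.69 in F344, had opposite signs, and neither passed. Tsc22d3 and Cxcr4 had the same pair of signs, while Fkbp5 and Irs2 had the reverse. The F344 sign of Tsc22d3 turned without NS F344 replicates 2 and 3. Both pairs also occurred among the 17, for example that of Dusp1 in Ddit4 and Bcl6 and the reverse in Sesn1 and Zfp36. Of the 17, 8 were positive in WKY and 7 in F344, so these signs show no shared pattern. The difference between strains in the response of Dusp1 was log2 1.18 (edgeR unadjusted p = 0.0276, adjusted 0.993). It was the 1 of 17 with an unadjusted p under 0.05 there, against 3.81% of all genes. Without NS F344 replicates 2 and 3 the F344 value of Dusp1 was -0.17. The hemoglobin scavenger receptor Cd163 (log2 -0.87) had the smallest p in WKY, and the transcription factor Cebpb (log2 -0.91) followed Dusp1 in F344; neither passed, and Cebpb was -1.21 without that pair of libraries. In WKY against F344 after CRS 0 of 17 passed, against 1.4% of all genes. There 2 of 17 had an unadjusted p under 0.05, against 11%, with Cebpb among them (log2 1.28, edgeR adjusted p = 0.258). In WKY against F344 averaged over treatments 0 of 17 passed, against 3.74% of all genes. At an unadjusted p under 0.05 there were 3 of 17, all higher, a share near the 14.8% of all genes: Anxa1, the glucocorticoid-induced annexin (log2 0.87, SE 0.335, edgeR adjusted p = 0.163), Cd163 (log2 0.88) and Klf4 (log2 0.91). The 8 monocyte markers summed to 115 to 161 CPM in CRS WKY and 113 to 129 CPM in NS WKY, against 75.6 to 82.5 CPM in CRS F344 and 53.3 to 67.7 CPM in NS F344, and their part in these 3 values was not tested.

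Receptor chaperones, co-regulators and steroid-handling enzymes had 11 of 28 listed genes tested. None passed in any of the 7 comparisons (edgeR), against 0% to 3.74% of all genes, and 0 had an unadjusted p under 0.05, against 3.81% to 14.8%. Hsp90ab1, a chaperone of the unliganded receptor, averaged 19.7 ± 5.96 CPM in CRS WKY and 18.9 ± 1.56 CPM in NS WKY, and 21.5 ± 2.23 CPM in CRS F344 and 19.5 ± 3.18 CPM in NS F344 (SD, n = 3 each). For CRS in WKY the smallest p belonged to Tmf1 (log2 0.89). Inflammatory genes that the receptor is known to repress had 8 of 20 tested. None passed in any comparison and 0 had an unadjusted p under 0.05, against the same shares of all genes. The medians for CRS were 0.21 in WKY and 0.16 in F344, beside 0.02 and 0.01 over all genes. The cytokine gene Il1b averaged 12.1 ± 0.335 CPM in CRS WKY and 9.33 ± 4.09 CPM in NS WKY, and 9.08 ± 2.85 CPM in CRS F344 and 9.22 ± 2.97 CPM in NS F344 (SD, n = 3 each). Of 20 further clock genes 3 were tested, Tef, Csnk1d and Csnk1e, and none passed. Tef, a clock output factor, had log2 -1.26 for CRS in F344 (SE 0.623, edgeR adjusted p = 0.918), opposite in sign to Per1, and -1.12 without NS F344 replicates 2 and 3.

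**Figure D4:**
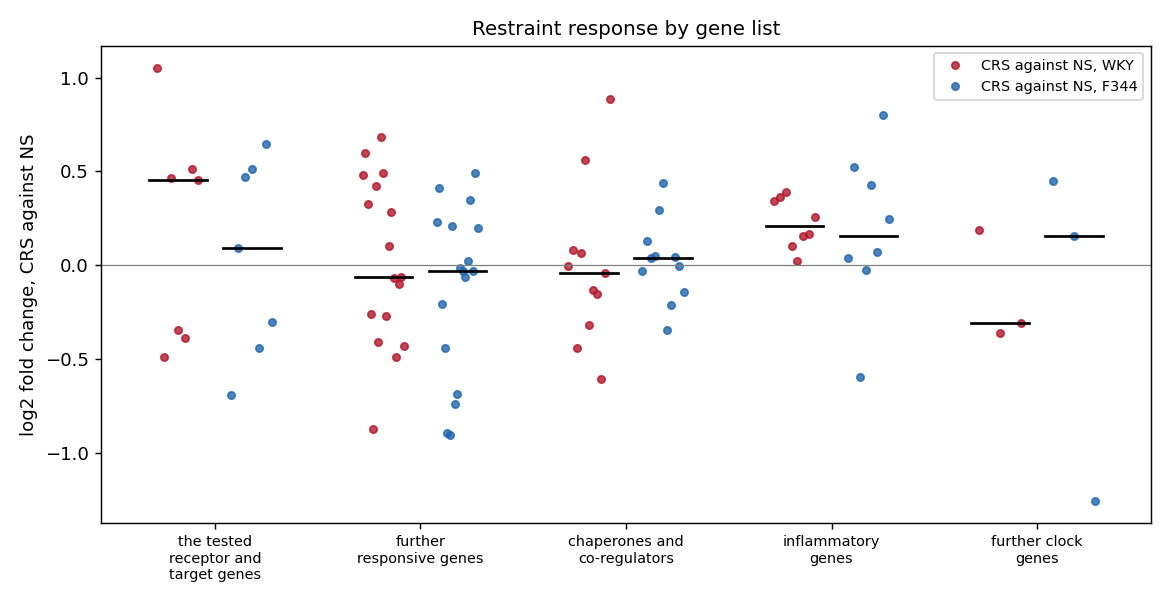
Log2 fold change for CRS against NS of every tested gene (points) and the list median (black line) in WKY and F344, for the 7 tested receptor and target genes and for 4 further lists. Medians lie between -0.31 and 0.45, and single values spread to both sides of 0 in every list but the inflammatory genes in WKY, whose 8 values run from 0.02 to 0.39.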

How the data were processed

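RNA from 12 rat blood samples, collected into PAXgene tubes, was sequenced with standard Ion Proton protocols, per the labels' protocols. The deposited values are whole-number read counts per gene symbol, not normalised by the authors. Build rn6 and the tools cutadapt 1.14, TopHat2 2.1.0 and Cufflinks 2.2.1 appear in the submitters' processing notes without their roles. No source used here gives the counting program, the annotation or the strand setting. Rows that name no gene (5 per file) held 80.9% to 86.6% of counts, mostly reads ambiguous between features (78.3% to 83.6%), and were left out of library sizes and tests; such reads lower the counts of overlapping genes.

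Counts were tested with edgeR 4.0.16 (quasi-likelihood test, TMM scaling, filterByExpr with minimum count 10) in R 4.3.3, as 4 group means in 1 fit, with p-values adjusted over 2781 genes. Standard errors come from the fold change and F statistic. Levels are not compared between genes, since they are not scaled by length. The fit was tested on simulated counts with known changes. Alternatives were DESeq2 size factors, DESeq2 1.42.0, other count filters, fits of the compared groups, a replicate block, removal of the 3 abundant features and leaving out libraries. No 2 libraries of a group agreed within sampling noise (chi-square per degree of freedom at least 5.55). The genes, lists and tests were chosen with earlier results of these data known. Named genes were the 8 genes, the 2 nearest partners of each tested one, and up to 3 genes per list and direction with the smallest p; some of these are not reported here. Marker and depth relations were added after values were seen. Intervals of counts cover counting error only.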

Additional observations from a re-analysis of the deposited data

How the results depend on the processing

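Of 49 values (7 genes in 7 comparisons), 927 alternatives could be computed; 881 kept their direction, 46 reversed and 0 changed a call. No alternative called any of the 8 genes. Glul's difference in response was 0.020 with DESeq2 size factors and 0.041 with a minimum count of 20. With no filter Tsc22d3 in F344 was 0.079; without stress Tsc22d3 was 0.061, Per1 0.11 and Glul 0.14 in WKY against F344; the difference in response of Nr3c1 was -0.28. Without both shallowest NS F344 libraries Tsc22d3 was 0.18 in F344 and 0.26 in WKY against F344 without stress, where Glul was 0.25, and Glul averaged 0.046 over treatments. With no filter the median of the 2781 genes was 0.36 in F344, 0.22 in WKY against F344 without stress and -0.35 for the difference in response, so those values are read relative to it. The cause of the other reversals was not tested.

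Of 18 same-numbered pairs of libraries 3 had deviations correlated over 0.1 (median 0.026, against -0.013 for other pairs). With counts this low such correlations cannot decide whether replicate numbers pair the libraries. With the replicate block, 2 genes were called for CRS averaged over strains, and Cxcr4 in WKY against F344 averaged -0.028. For strain averaged over treatments 120 genes were called with the block, against 104 without it.

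Leaving out 1 library at a time gave these ranges. For Fkbp5 CRS gave -0.25 to 0.32 in F344 and -0.50 to 0.046 on average. CRS averaged over strains gave -0.085 to 0.26 for Tsc22d3, -0.094 to 0.71 for Cxcr4 and -0.082 to 0.26 for Irs2. WKY against F344 gave -0.47 to 0.049 for Glul after CRS and -0.81 to 0.43 for Per1 without stress. Averaged over treatments it gave -0.52 to 0.097 for Per1, -0.48 to 0.32 for Cxcr4 and -0.23 to 0.093 for Irs2. The difference in response gave -0.13 to 0.24 for Nr3c1, -0.66 to 0.59 for Per1 and -0.34 to 0.18 for Glul.

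Over all genes, edgeR called 0 for CRS in WKY, 0 in F344, 1 on average and 0 for the difference in response, and 39, 19 and 104 for strain after CRS, without stress and on average. With no filter these were 8, 5 and 6 for CRS and 3 for the difference. DESeq2 called 2 for CRS on average and 33 for strain without stress, and a fit of the compared groups called 9 there. Without both shallowest libraries there were 0 for CRS on average, 5 and 43 for strain without stress and on average, and 1 for the difference. Leaving out single libraries gave 0 to 2 for CRS in WKY, 0 to 5 in F344, 0 to 5 on average and 0 to 2 for the difference; for strain it gave 18 to 46 after CRS, 5 to 44 without stress and 60 to 134 on average. Counts under 10 limit Nr3c1, Per1, Fkbp5, Irs2 and Cxcr4, in NS F344 replicate 3 and in other libraries. In CRS WKY replicate 2, for example, Nr3c1 had 7, Fkbp5 2, Per1 8 and Irs2 8 counts. In NS WKY replicate 1 Per1 and Cxcr4 had 3 counts each.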
